A study of Mus musculus with 10 samples.

Results

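The genes described here are 9 mouse genes of the airway lining and the air sacs of the lung, followed in RNA libraries from hearts. They were taken by gene symbol from the 3-month table (9 of 46786 genes) and the 12-month table (9 of 46977 genes), and each symbol matched 1 row in both. The study sequenced RNA of whole dissected hearts labelled Prdm16 knockout or control. There were 3 knockout and 3 control libraries at 3 months of age, and 2 knockout and 2 control libraries at 12 months. Prdm16 encodes a zinc-finger regulator of transcription. The sources used here do not give the strain, the alleles, any Cre driver or the sex of the animals, and nothing in the labels says whether a library came from 1 animal. P-values therefore measure the spread between these libraries, which may be technical. Per the labels, the younger hearts were sequenced as directional poly(A) libraries and the older ones were prepared at a sequencing institute, so levels were compared only within an age.

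The club cell of the small airways is a secretory cell that releases small proteins onto the airway surface. The alveolar type 2 cell of the air sacs makes surfactant, the film that lowers surface tension. These products rank among the most abundant transcripts of the cells that make them and are used as their markers. Among the 9 genes, Scgb1a1 encodes the main club cell secretory protein, and Scgb3a1 and Scgb3a2 encode other small secreted proteins of the same secretoglobin family. Bpifa1 encodes a secreted defence protein of the airway surface, and Cyp2f2 encodes a cytochrome P450 enzyme that is abundant in mouse club cells. Sftpc and Sftpb encode the hydrophobic proteins of surfactant, and Sftpa1 and Sftpd encode its collectins, lectins that bind microbes.

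The genes were chosen by their FPKM in the 3-month libraries, with Scgb1a1 and Bpifa1 already known to be lower under the knockout label there. The 3-month difference between the labels is therefore given as a description, with no test. Values are FPKM, the authors' fragment counts scaled to transcript length and library size, so levels of different genes can be set side by side. A log2 difference is knockout minus control on the log2(FPKM + 1) scale, which understates the change of low genes.

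The libraries carried the marks of heart tissue. The 10 cardiomyocyte markers summed to 41810 to 43687 FPKM in knockout libraries and 32471 to 40128 FPKM in control libraries at 3 months. At 12 months they summed to 73906 to 77061 FPKM in knockout libraries and 69323 to 69457 FPKM in control libraries. The sums were higher in the knockout libraries at both ages, without overlap, and their part in the results below was not tested. Prdm16 itself did not separate the labels at 3 months, with 1.43, 0.760 and 2.03 FPKM in knockout libraries, against 1.44, 2.23 and 1.61 FPKM in control libraries (limma, Benjamini-Hochberg adjusted p = 0.602). At 12 months it stood at 4.02 and 3.58 FPKM in knockout libraries, against 6.31 and 5.05 FPKM in control libraries (adjusted p = 0.340). The tables hold 1 value per gene, so exons that a deletion spares would count as well, and which exons were deleted is not given. At 12 months Xist, made from the inactive X chromosome, read 0.0911 and 0.0240 FPKM in knockout libraries, against 33.1 and 31.0 FPKM in control libraries, so genotype and sex-linked expression cannot be told apart at that age. Knockout replicate 2 of 3 months stood apart from the other knockout libraries. Its robust SD of log2 ratios over 2301 genes was 0.279 and 0.328 to them, against 0.104 between those libraries. Control replicates 1 and 2 were 0.288 apart.

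At 3 months the airway genes were lower or listed at 0 in the knockout hearts and present in every control heart. Scgb1a1, on chromosome 19 from 9083636 to 9087958 (minus strand, GRCm38, 3 exons), read 0.146, 0.319 and 0.151 FPKM in the knockout libraries, against 11.1, 26.8 and 10.6 FPKM in the control libraries. The groups did not overlap, and the lowest control was 33.4 times the highest knockout library. The means were 0.205 ± 0.0983 FPKM in knockout hearts and 16.2 ± 9.20 FPKM in control hearts (SD, n = 3 each), and the log2 difference was −3.71. Scgb1a1 lay above 18.1%, 26.1% and 18.1% of the genes with any signal in the knockout libraries, against 77.6%, 89.2% and 78.7% in the control libraries. Among genes whose longest transcript is within 20% of its 476 bases, the lowest 10% of values above 0 ended at 0.139, 0.138 and 0.138 FPKM in the knockout libraries. In such bulk tissue, fewer cells of a type and less RNA per cell cannot be told apart.

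**Figure D1:**
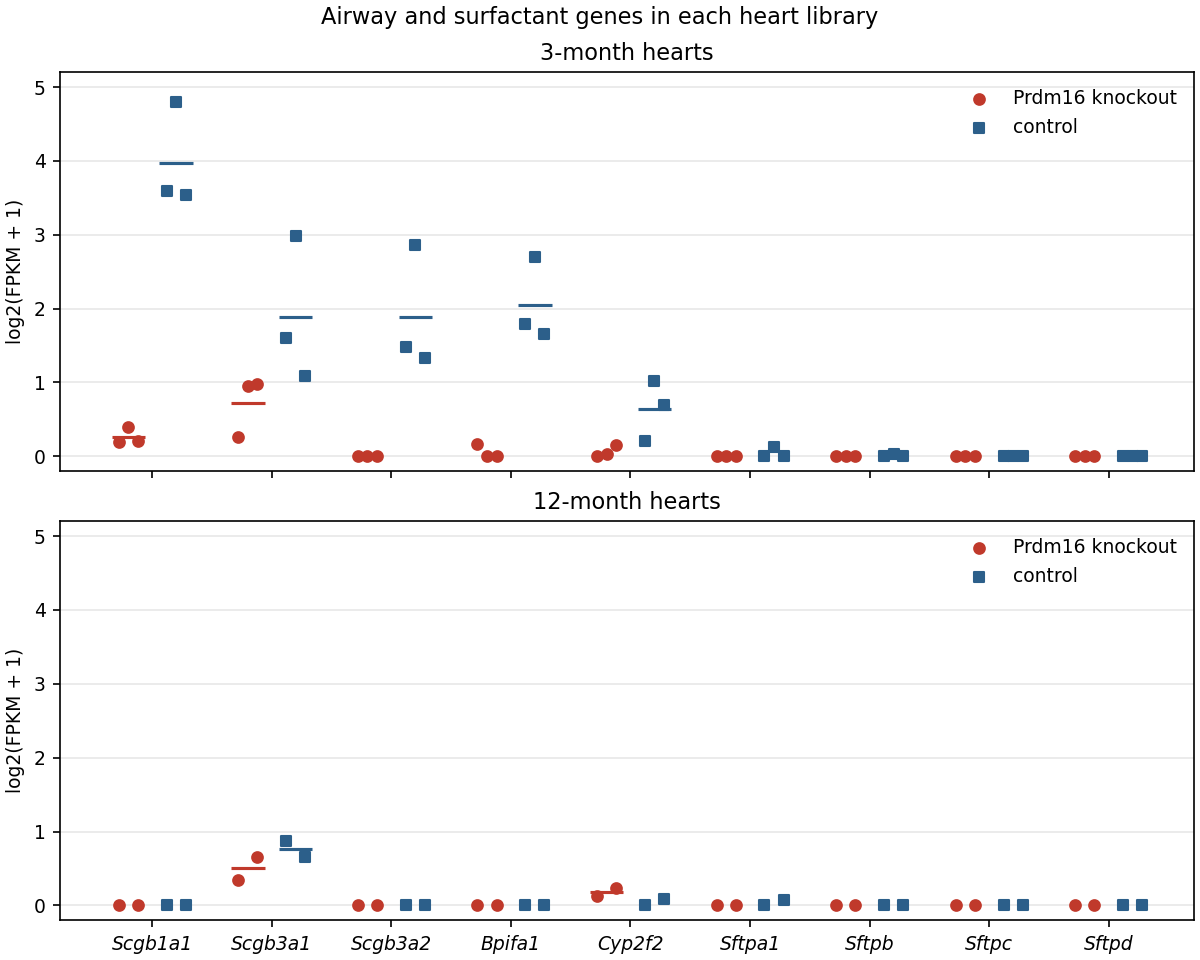
Level of each of the 9 genes in each library, as log2(FPKM + 1), with 3-month hearts above and 12-month hearts below. Each point is 1 library and each line is the mean of a group with no library at 0. At 3 months Scgb1a1 stood at 0.319 FPKM or less in the 3 knockout libraries and at 10.6 to 26.8 FPKM in the 3 control libraries, whereas at 12 months it was listed at 0 in all 4 libraries.

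Scgb3a2, on chromosome 18 from 43764289 to 43767399 (plus strand), was listed at 0 in all 3 knockout libraries, against 1.79, 6.29 and 1.52 FPKM in the control libraries. Bpifa1, on chromosome 2 from 154142880 to 154149219 (plus strand), read 0.124, 0 and 0 FPKM in the knockout libraries, against 2.47, 5.50 and 2.14 FPKM in the control libraries. For both genes every control lay above every knockout library. The fitted log2 differences were −1.89 for Scgb3a2 and −1.99 for Bpifa1. An exact 0 in a table without counts can be a failed estimate, so no fold is given for them.

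Scgb3a1, on chromosome 11 from 49663610 to 49665118 (plus strand), kept a low level in the knockout hearts. It read 0.197, 0.929 and 0.963 FPKM in the knockout libraries, against 2.04, 6.92 and 1.12 FPKM in the control libraries. The groups were apart by little, since the lowest control was 1.16 times the highest knockout library. The means were 0.696 ± 0.433 FPKM in knockout hearts and 3.36 ± 3.12 FPKM in control hearts (SD, n = 3 each), and the log2 difference was −1.16. It was −0.62 without control replicate 2.

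Cyp2f2, on chromosome 7 from 27119909 to 27133660 (plus strand), was the scarcest of the 5 airway genes. It read 0, 0.0236 and 0.107 FPKM in the knockout libraries, against 0.149, 1.03 and 0.622 FPKM in the control libraries. Control replicate 1 was only 1.40 times the highest knockout library. The gene overlaps Gm15883 in the annotation, and whether the authors' counting used strand is not given, so reads of the 2 cannot be told apart. Its mean over the 6 libraries, 0.322 FPKM, was under the 1 FPKM asked of a gene before it was fitted.

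The 4 surfactant genes gave almost nothing at 3 months, in either group. Sftpc and Sftpd were listed at 0 in all 6 libraries. Sftpb was listed at 0 in all 3 knockout libraries, against 0, 0.0207 and 0 FPKM in the control libraries. Sftpa1 was listed at 0 in all 3 knockout libraries, against 0, 0.0944 and 0 FPKM in the control libraries. The only trace of surfactant transcripts was thus in control replicate 2. Summed, the 4 genes were listed at 0 in every knockout library and reached 0.115 FPKM in that control, where the 5 airway genes summed to 46.5 FPKM.

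In all, 5 of the 9 genes had knockout libraries below all control libraries at 3 months, where 4.11% of the 22996 genes above 0 did (4.60% of the 12200 fitted genes). Of the 9 genes, 4 passed the filter of a mean of 1 FPKM (Scgb1a1, Scgb3a1, Scgb3a2 and Bpifa1), and they did so through the control libraries alone. These shares follow from how the genes were chosen and are not read further. Over the whole 3-month table of 46786 genes, 4 genes had at least 1 FPKM in every control and at most 0.35 FPKM in every knockout library, a pair of limits set after the values were seen. They were Scgb1a1, Bpifa1, Scgb3a2 and Gm11958. The last, a gene model, was listed at 0 in every knockout library, against 1.53, 2.34 and 1.37 FPKM in the control libraries. The mirror pattern held for 3 genes, Klk1b22, Rprm and Gm5963.

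The control hearts differed among themselves in how much airway transcript they held. The 5 airway genes summed to 0.467, 1.27 and 1.22 FPKM in the knockout libraries, against 17.5, 46.5 and 16.0 FPKM in the control libraries. Control replicate 2 was the highest library for each of the 5 genes. It exceeded the mean of the other controls 2.47 times for Scgb1a1, 2.39 times for Bpifa1, 2.68 times for Cyp2f2, 3.81 times for Scgb3a2 and 4.38 times for Scgb3a1. This library also had the smallest summed FPKM of the 6, 516272 against 626492 to 718787 in the others. As a share of that sum, Scgb1a1 made up 0.228, 0.443 and 0.240 parts in 1000000 in the knockout libraries, against 16.5, 51.9 and 15.9 parts in the control libraries. Without control replicate 2 the log2 difference of Scgb1a1 was −3.30.

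The proportions among the airway genes can be set beside each other within each control library. Bpifa1 stood at a near constant share of Scgb1a1, 22.2%, 20.5% and 20.1% in control replicates 1, 2 and 3. Scgb3a2 stood at 16.1%, 23.5% and 14.3%, and Scgb3a1 at 18.4%, 25.8% and 10.5%. Cyp2f2 ran from 1.34% to 5.85%. In the knockout libraries the order was different, since Scgb3a1 exceeded Scgb1a1 in all 3, at 135%, 292% and 639% of its level. These knockout ratios rest on Scgb1a1 values of 0.319 FPKM or less.

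**Figure D2:**
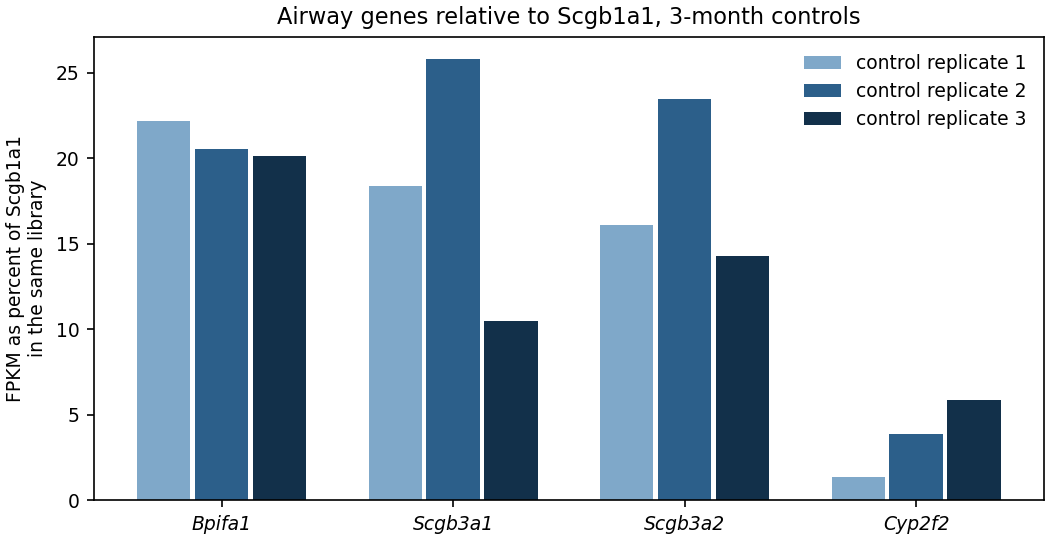
FPKM of 4 airway genes as a percent of Scgb1a1 in the same 3-month control library, with 1 bar per control replicate. Bpifa1 ranged from 20.1% to 22.2%, while Cyp2f2 stayed at 5.85% or less.

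At 12 months no airway gene reached 1 FPKM in either group. Scgb1a1, Scgb3a2, Bpifa1, Sftpb, Sftpc and Sftpd were listed at 0 in all 4 libraries. For genes of the length of Scgb1a1, the lowest 10% of values above 0 in those libraries ended at 0.138 and 0.169 FPKM in the knockout hearts and at 0.124 and 0.115 FPKM in the control hearts. The Scgb1a1 level of the 3-month controls was thus not seen in the 12-month controls. Xist read 0.0236, 0.0222 and 0.0155 FPKM in the 3-month controls, against 33.1 and 31.0 FPKM in the 12-month controls. Age cannot be told apart from the change of table, of library preparation and of sex-linked expression, and no test was run between the ages.

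Scgb3a1 and Cyp2f2 kept low values at 12 months. Scgb3a1 read 0.269 and 0.579 FPKM in the knockout libraries, against 0.837 and 0.570 FPKM in the control libraries. The groups overlapped. Cyp2f2 read 0.0905 and 0.180 FPKM in the knockout libraries, against 0 and 0.0633 FPKM in the control libraries. It was the 1 gene of the 9 whose knockout libraries lay above its controls at that age, where 20.6% of the 24309 genes above 0 did (27.3% of the 13179 fitted genes). Sftpa1 was listed at 0 in both knockout libraries, against 0 and 0.0501 FPKM in the control libraries. None of the 9 genes reached a mean of 1 FPKM at 12 months, so none was tested there.

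The upstream sequences of 3 airway genes that had lower values in the 3-month knockout libraries are shown beside that of a surfactant gene that stayed near 0. RefSeq promoter sequence (GRCm38.p6) was matched for 5 of the 9 genes, and 4 are printed, each the 250 bases before the start site on the plus strand. Capitals mark matches, on both strands, to 3 motifs of airway regulators. These were TGTTTNC for the FOXA factors, CTCAAG for NKX2-1 and TTGCNNAA for the C/EBP factors. The windows are chr2:154142630-154142879 for Bpifa1, chr11:49663345-49663594 for Scgb3a1, chr7:27119705-27119954 for Cyp2f2 and chr6:72304360-72304609 for Sftpb.
Bpifa1: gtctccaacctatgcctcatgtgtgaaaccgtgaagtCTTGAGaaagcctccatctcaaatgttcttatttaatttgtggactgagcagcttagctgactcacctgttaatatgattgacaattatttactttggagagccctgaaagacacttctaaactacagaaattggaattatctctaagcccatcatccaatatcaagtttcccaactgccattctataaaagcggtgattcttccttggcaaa
Scgb3a1: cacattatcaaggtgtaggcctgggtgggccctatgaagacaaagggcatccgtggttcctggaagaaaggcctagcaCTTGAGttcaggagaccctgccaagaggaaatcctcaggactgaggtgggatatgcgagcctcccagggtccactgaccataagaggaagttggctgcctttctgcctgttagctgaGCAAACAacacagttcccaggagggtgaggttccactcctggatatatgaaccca
Cyp2f2: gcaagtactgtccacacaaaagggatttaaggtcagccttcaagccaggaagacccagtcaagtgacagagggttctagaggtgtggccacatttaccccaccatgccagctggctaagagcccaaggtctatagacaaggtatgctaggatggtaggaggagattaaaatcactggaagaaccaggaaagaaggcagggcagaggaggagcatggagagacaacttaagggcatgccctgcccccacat
Sftpb: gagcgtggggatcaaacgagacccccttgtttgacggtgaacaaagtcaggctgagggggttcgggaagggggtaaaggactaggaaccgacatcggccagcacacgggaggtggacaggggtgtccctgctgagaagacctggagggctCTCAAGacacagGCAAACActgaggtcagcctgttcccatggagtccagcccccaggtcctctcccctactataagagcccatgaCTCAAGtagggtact
Bpifa1 held 1 match, to the NKX2-1 letters. Scgb3a1 held 1 match to the NKX2-1 letters and 1 to the FOXA letters. Cyp2f2 held none, and Sftpb held 2 matches to the NKX2-1 letters and 1 to the FOXA letters. Sftpa1, not printed, held 1 match, to the NKX2-1 letters. No match shared bases with another. Over all 32851 promoters of the table, 13.3% held the NKX2-1 letters, 17.8% the FOXA letters and 9.56% the C/EBP letters in the same window. The letters therefore occurred both in genes present in the controls and in a gene at or near 0 in every library.

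The close relatives of these genes behaved in several ways. The 3-month table listed 69 genes with Scgb symbols, of which 65 were at 0 in every library. Besides the 3 airway secretoglobins, only Scgb1c1 had signal. It read 26.8, 23.4 and 15.9 FPKM in the knockout libraries, against 21.7, 16.7 and 18.0 FPKM in the control libraries. The groups overlapped, with means of 22.0 ± 5.58 and 18.8 ± 2.61 FPKM (knockout and control; SD, n = 3 each; log2 difference 0.19, SE 0.19; limma, Benjamini-Hochberg adjusted p = 0.622). At 12 months Scgb1c1 read 15.1 and 14.6 FPKM in knockout libraries, against 17.8 and 14.1 FPKM in control libraries (adjusted p = 0.798). This secretoglobin was therefore present in all 10 libraries, at both ages.

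Of the 14 genes with Bpif symbols, 10 were at 0 in every 3-month library. Bpifb4, of the same family, had its higher values in the knockout libraries. It read 0.0390, 1.76 and 0.128 FPKM in the knockout libraries, against 0, 0 and 0 FPKM in the control libraries, and the knockout values rest mostly on replicate 2. At 12 months Bpifb4 read 4.56 and 1.47 FPKM in the knockout libraries, against 0.0459 and 0 FPKM in the control libraries. That difference did not pass the test (log2 1.86, SE 0.44; limma, Benjamini-Hochberg adjusted p = 0.253).

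The other markers of lung and airway were then followed, as 9 lists with 109 further genes, of which 106 matched the 3-month table. Of those 106, 78 stayed under 1 FPKM in every library and 23 passed the filter. Of all 12200 fitted genes, 91 were called (0.746%). None of the 23 was called lower in knockout hearts (limma, Benjamini-Hochberg adjusted p under 0.05), where 0.123% of all fitted genes were. At an unadjusted p under 0.05 none was lower either, against 2.30% of all fitted genes, and 7 were higher, against 15.9%. One gene, Ear2, was called higher, where 0.623% of all fitted genes were. The 23 genes had a median log2 difference of 0.29, against 0.09 for all fitted genes, with 20 above 0. After median-of-ratios rescaling 18 of 23 were above 0 and after TPM rescaling 19 of 26. Without the filter 47 of 93 list genes were above 0, so the lean upward was not seen over all list genes.

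The airway secretory list holds further markers of airway secretory cells, and which cells of these hearts made their transcripts was not tested. Its 3 fitted genes did not pass the test, and the 2 most abundant overlapped between labels. Cbr2, a carbonyl reductase, read 17.2, 25.5 and 17.6 FPKM in knockout libraries, against 15.3, 18.5 and 20.4 FPKM in control libraries (log2 difference 0.13, adjusted p = 0.724). Cyp4b1, a cytochrome P450, read 9.59, 9.34 and 9.45 FPKM in knockout libraries, against 9.14, 10.9 and 8.14 FPKM in control libraries (log2 difference 0.02, adjusted p = 0.958). At 12 months, when Scgb1a1 was listed at 0, Cbr2 averaged 22.1 ± 8.17 FPKM in knockout hearts and 19.2 ± 1.15 FPKM in control hearts (SD, n = 2 each). Summed, the list reached 31.1 to 38.7 FPKM in knockout libraries and 30.7 to 34.7 FPKM in control libraries at 3 months. At 12 months the sums did not overlap, with 52.7 to 75.0 FPKM in knockout libraries and 34.3 to 38.3 FPKM in control libraries. Of these sums, Cyp2b10 held 0.128 and 12.9 FPKM in knockout libraries, against 0 and 0.0199 FPKM in control libraries. Cyp4b1 read 12.7 and 27.3 FPKM in knockout libraries, against 8.06 and 8.77 FPKM in control libraries. Gsta3 read 10.2 and 14.3 FPKM, against 4.87 and 5.74 FPKM, and none of these genes was called (limma).

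Below the filter, some genes of the list were lower in knockout libraries, at trace levels. Of its 17 genes above 0 at 3 months, 4 had every knockout library below every control, and 0 had the reverse. Over all 22996 genes above 0, the shares were 4.11% and 14.0%. Over the 93 genes above 0 of all 9 lung lists, 5 lay wholly lower in knockout libraries and 12 wholly higher. Bpifb1, a secreted relative of Bpifa1, read 0.0223, 0.0248 and 0.0216 FPKM in knockout libraries, against 0.0323, 0.455 and 0.143 FPKM in control libraries. Reg3g, a secreted antimicrobial lectin, read 0.0686, 0 and 0 FPKM in knockout libraries, against 0.505, 0.501 and 0.0957 FPKM in control libraries. Muc5b, the secreted airway mucin, and Cyp2a5 were the other 2, with Muc5b at 0.0153 FPKM or less throughout. These values are too low for a test, and Reg3g was about as high in control replicate 1 as in control replicate 2. At 12 months 5 of the 13 genes of the list above 0 lay higher in knockout libraries and 0 lower, where 20.6% and 21.2% of all 24309 genes above 0 did. The mucin gene Muc5ac and the secretory gene Agr2 were listed at 0 in all 6 libraries.

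**Figure D3:**
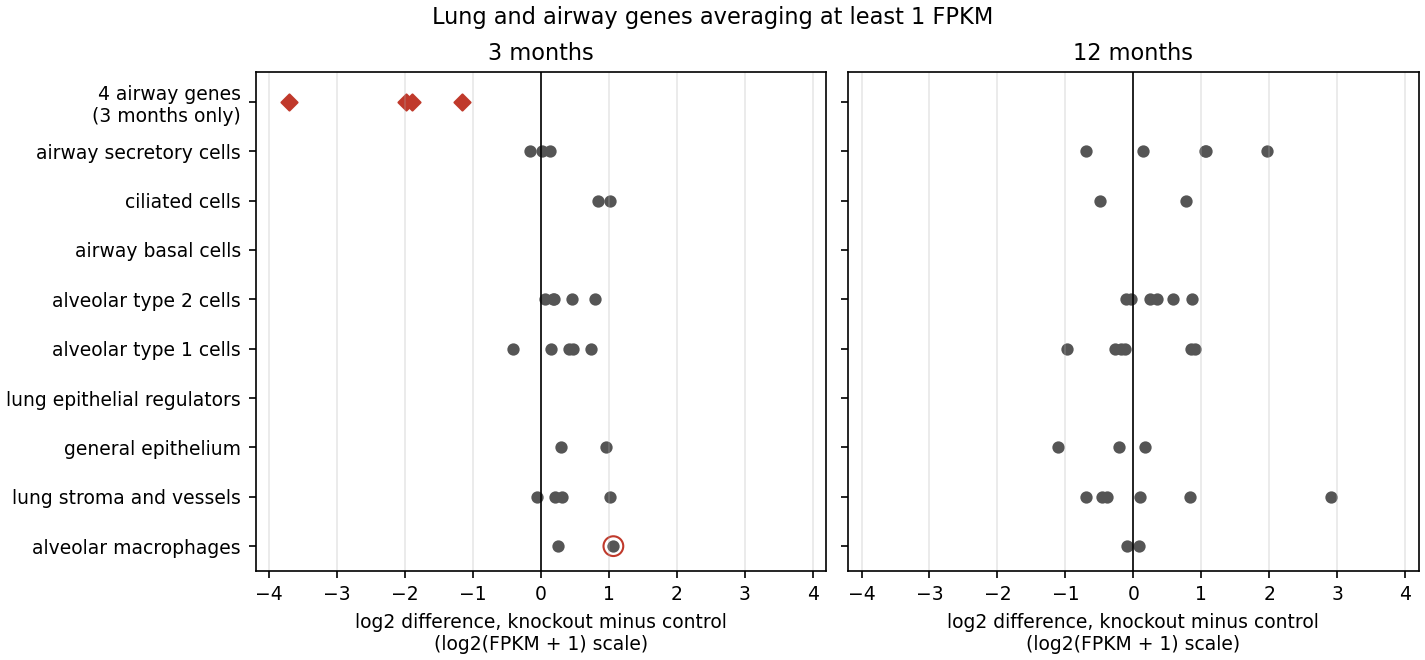
Log2 difference, knockout minus control, of each gene averaging at least 1 FPKM, by marker list, at 3 months (left) and 12 months (right). Diamonds are the 4 airway genes that passed the filter at 3 months, from −3.71 to −1.16, dots are genes of the 9 lung lists, and the ring marks Ear2, the one list gene called in this fit. The airway basal and lung epithelial regulator lists are empty because none of their genes passed the filter.

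The regulators and adhesion genes of airway epithelium were low. The 8 lung epithelial regulators summed to 0.563 to 0.625 FPKM in knockout libraries and 0.576 to 0.958 FPKM in control libraries, most of it Grhl2, which many epithelia make. Nkx2-1, the master regulator of lung epithelium, was listed at 0 in all 3 knockout libraries, against 0, 0.0176 and 0 FPKM in the control libraries. Foxa1 and Foxa2, partners in the same programme, had values above 0 only in control replicate 2, at 0.0453 and 0.0161 FPKM. Sox2 of the same list was not confined to the controls. It read 0.0214, 0.0669 and 0.0209 FPKM in knockout libraries, against 0.125, 0.0550 and 0 FPKM in control libraries. Epcam, an adhesion protein of epithelia, read 0, 0.0221 and 0 FPKM in knockout libraries, against 0, 0.0692 and 0.0273 FPKM in control libraries. Cdh1, another adhesion gene, read 0.0565, 0.0337 and 0.0157 FPKM in knockout libraries, against 0, 0.0274 and 0.0106 FPKM in control libraries. Of the 12 general epithelium genes above 0, Krt18 and Spint2 lay wholly higher in knockout libraries and 0 wholly lower. Over all genes above 0 those shares were 14.0% and 4.11%. The 14 general epithelium genes summed to 33.8 to 55.1 FPKM in knockout libraries and 19.6 to 24.6 FPKM in control libraries. Nearly all of that was Spint2, a protease inhibitor, at 31.5, 49.7 and 34.7 FPKM in knockout libraries, against 17.3, 19.6 and 20.5 FPKM in control libraries (log2 0.95; limma, Benjamini-Hochberg adjusted p = 0.0542). Spint2 was called higher among genes averaging 5 FPKM or more and without knockout replicate 1. Esrp1 and Cldn4 of that list and Krt5, the keratin of airway basal cells, were listed at 0 in all 6 libraries. In the ciliated cell list Foxj1, the regulator of motile cilia, reached at most 0.0744 FPKM. Tppp3 and Dnaic1, its most abundant members, had log2 differences of 0.84 and 1.01 and did not pass (adjusted p = 0.232 and 0.137). The ciliated list summed to 25.3 to 62.7 FPKM in knockout libraries and 17.3 to 26.2 FPKM in control libraries. The part of other cells in the airway gene difference was not tested.

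Of the alveolar markers, 5 of type 2 and 5 of type 1 cells were fitted at 3 months. None was called lower, where 0.123% of all fitted genes were, too small a share to read that count further. Below the filter, Akap5 of the type 1 list lay wholly lower in knockout libraries. It read 0.537, 0.286 and 0.470 FPKM in knockout libraries, against 0.565, 1.09 and 0.755 FPKM in control libraries. Of the 10 type 1 genes above 0, 2 lay wholly higher. Slc34a2, Cxcl15 and S100g of the type 2 list and Cldn18 and Scnn1g of the type 1 list were listed at 0 in all 6 libraries of 3 months. Ctsh, a protease that takes part in surfactant protein processing and is made in many tissues, read 23.0, 36.0 and 20.8 FPKM in knockout libraries, against 16.6, 10.9 and 16.8 FPKM in control libraries. That difference did not pass (log2 0.79; limma, Benjamini-Hochberg adjusted p = 0.157). Hopx, a type 1 marker that heart muscle also makes, averaged 319 ± 17.1 FPKM in knockout hearts and 231 ± 26.4 FPKM in control hearts (SD, n = 3 each; adjusted p = 0.160). Ear2, an eosinophil and macrophage ribonuclease listed with alveolar macrophages, rose. It read 2.78, 2.28 and 2.27 FPKM in knockout libraries, against 0.617, 0.859 and 0.472 FPKM in control libraries (log2 1.07, SE 0.14; limma, Benjamini-Hochberg adjusted p = 0.0131). Over 13 alternatives its adjusted p ran from 0.00903 to 0.0907, and the call was lost without control replicate 3 (0.0716), without a filter (0.0907) and with the replicate number as a block (0.0682). At 12 months Ear2 had a log2 difference of −0.09 (adjusted p = 0.924), and the difference between the ages was not tested.

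Lists for other organs and for the epicardium were followed as well, and several of them were low. The tracheal cartilage list was not, at 1.82 to 10.8 FPKM in knockout libraries and 1.88 to 7.93 FPKM in control libraries at 3 months. The thymus list summed to 1.44 to 1.64 FPKM in knockout libraries and 0.464 to 0.570 FPKM in control libraries at 3 months. That sum was mostly Cd4, Cd8a and Cd8b1, and 4 of the 10 thymus genes were listed at 0 in every library. The oesophagus list summed to 0.413 to 1.28 and 0.138 to 0.648 FPKM, and the salivary gland and pancreas list to 0.102 to 0.194 and 0.0313 to 0.196 FPKM (knockout, then control). Tg, the thyroid hormone precursor, read 1.16, 2.07 and 1.55 FPKM in knockout libraries, against 1.03, 0.783 and 0.580 FPKM in control libraries (log2 0.52, adjusted p = 0.182). Comp, of cartilage and tendon, read 1.63, 10.4 and 3.29 FPKM in knockout libraries, against 3.02, 1.38 and 7.31 FPKM in control libraries, so the groups overlapped. Apoa2 of the liver list had a log2 difference of 0.15 and Upk3b of the mesothelium and epicardium list one of 0.45, and neither passed (adjusted p = 0.705 and 0.454). At 12 months the mesothelium and epicardium list lay the other way. It summed to 5.98 to 22.3 FPKM in knockout libraries and 32.7 to 34.3 FPKM in control libraries, and 7 of its 8 genes had both knockout libraries below both controls, against 21.2% of all genes above 0. Upk3b had a log2 difference of −1.43 at that age (limma, Benjamini-Hochberg adjusted p = 0.404). No gene of these lists was called at either age (limma), and at an unadjusted p under 0.05 there were 2 of 7 fitted genes at 3 months, both higher, and 2 of 11 at 12 months, 1 higher and 1 lower, where 18.2% and 13.6% of all fitted genes were in either direction.

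At 12 months 108 of the 109 lung list genes matched the table, 30 passed the filter and none was called (limma, Benjamini-Hochberg adjusted p under 0.05), where 0.395% of all fitted genes were (0.167% higher and 0.228% lower). At an unadjusted p under 0.05, 8 were higher and 3 lower, against 7.58% and 5.98% of all fitted genes. Inmt, a methyltransferase of lung stroma, read 16.0 and 40.7 FPKM in knockout libraries, against 2.41 and 2.65 FPKM in control libraries (log2 2.92, adjusted p = 0.179). Clic5, a chloride channel protein listed with type 1 cells, read 93.8 and 90.1 FPKM in knockout libraries, against 48.4 and 48.4 FPKM in control libraries (log2 0.91, adjusted p = 0.102). Both genes are also made outside the lung, and they were the list genes of lowest p at that age.

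Over the 6 libraries of 3 months, the genes whose profile was most like that of Scgb1a1 were Cyp26b1, Atf5, Ephb1, Cdk5rap1, Mthfd2, Aldh18a1, Bcl6, Hddc3, Rsph3b and Sh2d4a, with Pearson r of 0.97 to 0.99 among 2498 genes that varied, leaving out the 9 genes themselves and unnamed gene models. All points come from the same 6 libraries, in which the labels form 2 levels, so r describes mainly that step. Cyp26b1, a retinoic acid degrading enzyme, read 0.632, 0.561 and 0.577 FPKM in knockout libraries, against 2.81, 4.55 and 3.35 FPKM in control libraries. Like the airway genes it was highest in control replicate 2. So were the others of the 10 genes except Hddc3, and the choice by likeness to Scgb1a1 favours this. Among the airway genes, Bpifa1 had r = 0.99 with Scgb1a1, above 8 of these 10, Scgb3a2 had 0.97 and Scgb3a1 had 0.82. Of the 10 genes, 7 were called lower, where 0.123% of all fitted genes were, and 3 (Aldh18a1, Bcl6 and Sh2d4a) were not. The choice of a profile that is low under the knockout label favours such calls.

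**Figure D4:**
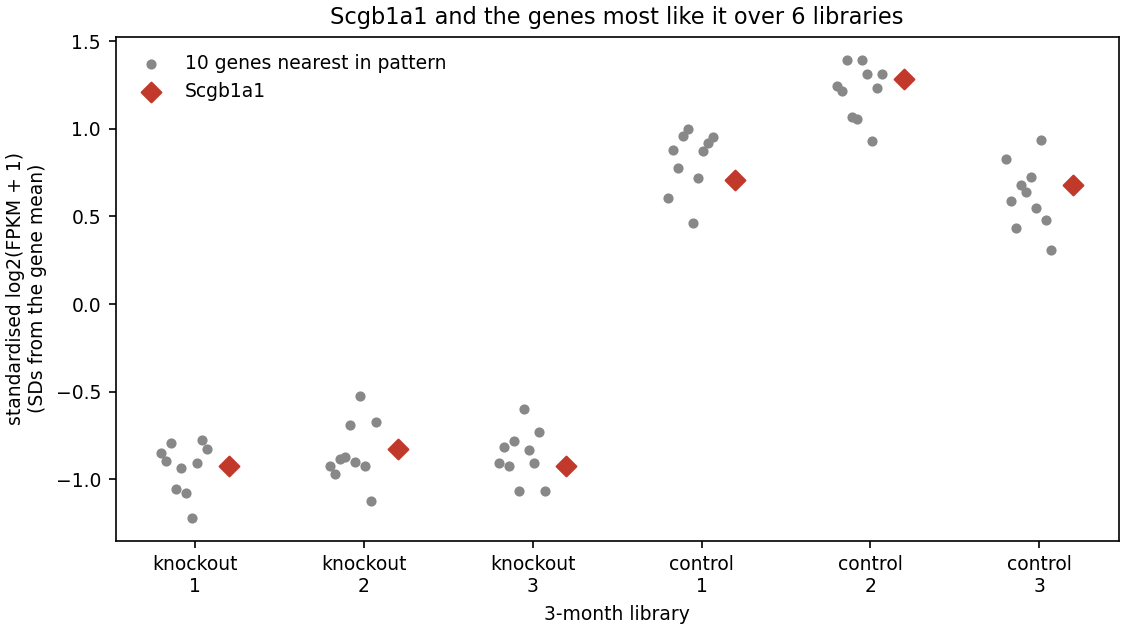
Standardised log2(FPKM + 1) in the 6 libraries of 3 months for Scgb1a1 (diamonds) and the 10 genes nearest to it in profile outside the 9 genes and unnamed gene models (dots, offset sideways), in SDs from each gene's mean. The 3 knockout libraries lie below the mean and the 3 control libraries above it for every gene shown, and Scgb1a1 is highest in control replicate 2, at 26.8 FPKM.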

How the data were processed

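RNA from mouse hearts was sequenced in 10 libraries. FPKM values were made and deposited by the authors, 1 table per age and 1 column per library, with no counts, so depth is unknown. Per the submitters' processing notes the tools were Cufflinks 2.1.1, STAR 2.5.1b, TopHat2 2.1.0 and FastQC, with builds GRCm38 and mm10; which tool made which table is not given in the labels. The deposited 12-month table is named as one without outliers. At 3 months 69 repeated identifiers were summed. Coordinates are from GENCODE M21 (GRCm38), matched on the identifier without its version.

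Groups and replicate numbers are those of the sample titles. Genes averaging 1 FPKM or more within an age were fitted (12200 at 3 months, 13179 at 12 months) on log2(FPKM + 1) with limma 3.58.1 in R 4.3.3, with a variance trend and Benjamini-Hochberg adjustment over all fitted genes, and called at an adjusted p under 0.05. On simulated data, 200 genes were given known changes and the fit was tested for their recovery. Those 200 were drawn from the more abundant fitted genes, so the simulation does not cover genes of low FPKM. Its outcome is not given here. The 9 genes and the marker lists were chosen with earlier results of these data known. The rule for named genes took the 9, their relatives at 1 FPKM or more, the called and the 2 most abundant genes of a list, and the 10 nearest to Scgb1a1 in Pearson r among genes with an SD of at least 0.3, without the 9 and unnamed gene models. Of the list genes named, Epcam, Nkx2-1, Foxa1, Foxa2, Foxj1, Krt5, Esrp1, Cldn4, Muc5b, Muc5ac, Agr2, Reg3g, Cyp2a5, Cyp2b10, Gsta3, Bpifb1, Slc34a2, Cxcl15, S100g, Cldn18 and Scnn1g fall outside that rule: their choice followed a look at their values. Cdh1, Krt18 and Akap5 also fall outside that rule, and were added after their values were seen. Genes the rule took with nothing to add are not described. Alternatives were other pseudocounts (0.1 and 0.5), no filter or 5 FPKM, TPM and median-of-ratios rescaling, no trend, a replicate block and each library left out.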

Additional observations from a re-analysis of the deposited data

Results flagged for a closer look

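Cyp2f2 had differences of opposite sign at the 2 ages, with every knockout library below every control at 3 months and above at 12 months. Its log2 differences were −0.58 at 3 months and 0.14 at 12 months, 0.72 apart. Bpifb1 did the same, at −0.23 and 0.09, 0.32 apart. Cd4 and Cd8b1, T cell genes of the thymus list, had the opposite signs, with the knockout libraries above the controls at 3 months and below them at 12 months. Cd4 was at 0.09 at 3 months and −0.67 at 12 months (−0.76 apart), and Cd8b1 at 0.57 and −0.29 (−0.86 apart). The difference between the ages was not tested for these 4 genes, each of which averaged under 1 FPKM at both ages.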

How the results depend on the processing

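The log2 difference of Scgb1a1 at 3 months was −3.71 and kept its sign in every alternative, at −5.64 with a pseudocount of 0.1, −4.44 with 0.5, −4.26 after TPM rescaling and −3.93 to −3.30 when 1 library was left out. That of Scgb3a1 ran from −1.57 to −0.62 with 1 library left out, and those of Bpifa1 and Scgb3a2 from −2.19 to −1.96 and from −2.17 to −1.89, both with no fitted value without control replicate 2, where their mean fell under the filter. With a pseudocount of 0.1 the differences were −4.60 for Bpifa1, −4.75 for Scgb3a2 and −1.94 for Scgb3a1, with 0.5 they were −2.75, −2.66 and −1.46, and after TPM rescaling −2.53, −2.43 and −1.45. No other lung list gene was called lower at 3 months in any alternative. The genes called at 3 months (91, of which 76 were higher) numbered 10 without a filter (7 higher), 59 after median-of-ratios rescaling (42 higher), 134 after TPM rescaling (106 higher) and 29 with the replicate number as a block. With 1 library left out they ran from 22 (without control replicate 2) to 81, with 29 without control replicate 3 and 59 without knockout replicate 2. At 12 months the 52 calls (22 higher) became 17 without a filter and 47 after TPM rescaling (14 higher), where the median of all fitted genes was −0.27 in place of 0.01. They ran from 0 without either control to 654 without knockout replicate 2 and 4409 without knockout replicate 1, where the lone library is assumed to vary like the controls, although the knockout libraries were 0.361 apart (robust SD of log2 ratios) and the controls 0.0725. The lung list genes called at 12 months ran likewise from 0 to 13, with 5 without knockout replicate 2. At 3 months the replicate numbers did not pair the samples. Same-numbered libraries of that age had deviations correlated at −0.12, −0.46 and −0.14, none best with its own number. Those of 12 months were correlated at −0.0063. With 2 libraries per group all pairings have that size by construction and differ only in sign, so this check says little. Under the block the log2 differences were unchanged by construction. Genes under the filter had no fitted value. Depth is unknown, so a listed 0 is not shown to be an absence.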

Other observations

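Bpifa1 lies in a cluster of BPI fold genes on chromosome 2, and its relatives there had unlike values. Bpifb4, upstream of it from 153938212 to 153964101, had its higher values in knockout libraries at both ages, while Bpifb1, downstream of it from 154190818 to 154220369, had its lower values there at 3 months. Cdk5rap1, a mitochondrial tRNA-modifying enzyme gene 186160 bases beyond Bpifa1, was called lower at 3 months (log2 −1.07; limma, Benjamini-Hochberg adjusted p = 0.00882). It was the 1 call among the 7 fitted genes within 0.5 Mb of Bpifa1, where 0.746% of all fitted genes were called. Within the same distance of Scgb1a1, 0 of 25 fitted genes were called, and the other 7 genes had 0 calls among their neighbours at 3 months. This distance was chosen after the values were seen.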
